A study of Mus musculus with 6 samples.

Results

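The Hox genes lie in 4 clusters in the mouse genome, and all 39 of them were taken, of 21951 protein-coding genes in the annotation (GENCODE, mm10). HoxA held 11 genes (chr6, 52155590 to 52260880), HoxB 10 (chr11, 96194316 to 96368256), HoxC 9 (chr15, 102921103 to 103036852) and HoxD 9 (chr2, 74668310 to 74765142). The places described are those within a cluster or within 20 kb of either end, and they were chosen by position only. Accessible places were compared as windows that extend 250 bp to either side of a called peak summit, and 158 of 179253 windows fell in the clusters, 38 in HoxA, 47 in HoxB, 50 in HoxC and 23 in HoxD. A further 34 windows in the clusters did not pass the filter, which asked for a summit with a q-value under 0.01 in at least 2 libraries.

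The assay was ATAC-seq, in which the transposase Tn5 cuts accessible chromatin in nuclei and the cut sites are sequenced. It was run on preadipocytes isolated from inguinal white adipose tissue of adult C57BL/6 mice and cultured on collagen-coated plates, harvested at day 0, with no differentiation treatment yet. The 3 WT libraries came from mice with both genes intact, and the 3 DKO libraries from mice that lack Hmgn1 and Hmgn2, the genes of 2 nucleosome-binding proteins, in every tissue. The labels do not say whether the replicates of a genotype came from separate animals, so every p-value measures only the spread between these libraries. In bulk cells, a site open in fewer cells and a site less open in each cell cannot be told apart.

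Hox proteins are homeodomain transcription factors that give cells their position along the head-to-tail axis of the embryo. Within a cluster the order of the genes follows the order of their expression along that axis, with paralog group 1 at the anterior end and group 13 at the posterior end. Adult fibroblasts and preadipocytes keep a Hox pattern typical of their body site, so fat depots differ in which Hox genes they use. Polycomb proteins keep unused Hox genes closed, trithorax proteins such as the product of Kmt2a keep used ones active, and CTCF sites divide the clusters into domains.

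Each library was deposited as a list of its 299433 to 299620 best peak summits, near a limit of 300000, so that the lists do not give the sequencing depth. The lowest read pileup at a listed summit was 10, 10 and 12 reads in WT and 10, 10 and 8 reads in DKO, which places the third DKO library as the shallowest by this measure. At the targeted genes, the window at the Hmgn2 start site (chr4, 133967752 to 133968252) stood at 7.89, 7.53 and 9.45 times its local background in WT and was listed in 0 DKO libraries (adjusted p = 0.0313 by limma). The Hmgn1 promoter window (chr16, 96127845 to 96128345) was listed in all 6 libraries, at 12.6, 13.9 and 20.1 in WT and 14.9, 16.3 and 14.4 in DKO (adjusted p = 0.706), and so gives no check of that deletion. Of 8 preadipocyte and fibroblast markers, 7 had a promoter window in all 6 libraries, Ly6a being the exception. Of 11 markers of other cells, 5 had a promoter window in some library and 2, Cd68 of macrophages and Pecam1 of endothelium, in all 6. Ptprc, Myod1, Pax7, Krt5, Epcam and Sox10 had none, while the endothelial gene Cdh5 was listed only in the 3 DKO libraries, at 3.91, 7.09 and 4.26 (adjusted p = 0.142). So were Tie1 of endothelium in 2 of them, at 5.03 and 3.28, and Adgre1 of macrophages in 2, at 3.91 and 3.40. Of the 5 with a window, 4 were higher in DKO and 0 were called by limma, with 2 at an unadjusted p under 0.05 and a median log2 change of 0.85. The exception was Pecam1, without overlap, at 16.9, 12.2 and 17.2 in WT and 11.1, 11.8 and 10.3 in DKO (adjusted p = 0.297). The part of these other cells in the Hox results was not tested.

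A window is named here by the nearest Hox start site and the distance of the window's centre from it in bp, with a minus sign for upstream. The central 151 bases of 8 windows are shown, 5′ to 3′ on the plus strand of mm10, because the results turn on them. The first 3 are among the windows of the highest rank in the clusters, and the other 5 are those with the smallest p-values between genotypes. Capitals mark an AP-1 match (TGANTCA), a HOX-PBX match (TGATTNAT), the homeodomain core TAATTA or a CTCF consensus match with at most 1 mismatch, on either strand, and all other bases are in lower case.
Hoxb9 -11002 (chr11:96260380-96260530, plus strand): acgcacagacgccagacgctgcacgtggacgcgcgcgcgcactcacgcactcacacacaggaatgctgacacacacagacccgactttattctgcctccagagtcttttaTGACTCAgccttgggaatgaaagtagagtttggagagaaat
Hoxa4 +6312 (chr6:52185366-52185516, plus strand): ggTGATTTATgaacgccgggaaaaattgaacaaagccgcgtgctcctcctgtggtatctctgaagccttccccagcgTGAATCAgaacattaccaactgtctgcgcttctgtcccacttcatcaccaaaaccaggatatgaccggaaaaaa
Hoxc13 -290 (chr15:102920738-102920888, plus strand): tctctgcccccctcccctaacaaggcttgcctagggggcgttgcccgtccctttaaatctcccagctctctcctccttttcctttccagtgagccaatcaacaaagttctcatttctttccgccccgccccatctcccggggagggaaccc
Hoxd3 +4059 (chr2:74715911-74716061, plus strand): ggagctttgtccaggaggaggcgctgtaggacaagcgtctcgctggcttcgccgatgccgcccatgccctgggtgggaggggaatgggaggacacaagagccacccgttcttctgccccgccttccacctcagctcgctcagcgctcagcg
Hoxa13 -9771 (chr6:52270576-52270726, plus strand): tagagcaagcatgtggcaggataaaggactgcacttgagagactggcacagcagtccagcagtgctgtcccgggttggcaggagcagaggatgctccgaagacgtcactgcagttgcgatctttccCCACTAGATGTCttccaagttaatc
Hoxd11 -2772 (chr2:74679476-74679626, plus strand): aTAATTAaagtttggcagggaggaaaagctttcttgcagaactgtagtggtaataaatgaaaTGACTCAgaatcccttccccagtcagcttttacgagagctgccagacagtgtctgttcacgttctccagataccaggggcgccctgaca
Hoxd12 +865 (chr2:74675803-74675953, plus strand): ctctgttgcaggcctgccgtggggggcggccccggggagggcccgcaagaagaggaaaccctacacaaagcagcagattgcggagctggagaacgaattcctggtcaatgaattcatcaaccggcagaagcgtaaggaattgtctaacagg
Hoxc10 +399 (chr15:102967120-102967270, plus strand): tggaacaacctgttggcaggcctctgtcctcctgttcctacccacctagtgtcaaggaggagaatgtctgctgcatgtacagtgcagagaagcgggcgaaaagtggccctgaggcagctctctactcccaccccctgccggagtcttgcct

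Hoxb9 -11002 and Hoxa4 +6312 each hold an AP-1 match, and Hoxa4 +6312 also a HOX-PBX match. Hoxd11 -2772 holds an AP-1 match and a homeodomain core, and Hoxa13 -9771 holds a near match to CTCF. The windows Hoxc13 -290, Hoxd3 +4059, Hoxd12 +865 and Hoxc10 +399 hold none of these in the stretch shown. A match is a description of the letters and does not show that a factor binds there. Hoxd12 +865 and Hoxc10 +399 lie in coding exons of those genes.

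The first comparison asks how densely the clusters were filled with accessible places. HoxD was the least densely filled, and HoxB lay below HoxA and HoxC. Peak summits per 10 kb, flanks included, were 4.59 ± 0.260 in HoxA (SD, n = 6 libraries), 3.93 ± 0.304 in HoxB, 4.62 ± 0.203 in HoxC and 2.19 ± 0.249 in HoxD. The range over the 6 libraries was 4.20 to 4.96 in HoxA, 3.51 to 4.44 in HoxB, 4.302 to 4.88 in HoxC and 1.90 to 2.63 in HoxD, so every library had its lowest density in HoxD. HoxD was lower than HoxA by 2.40 summits per 10 kb, than HoxC by 2.43 and than HoxB by 1.73, each in 6 of 6 libraries. In a 2-sided exact sign-flip permutation test over libraries each of these differences gave p = 0.03125, the smallest that 6 pairs allow, and an adjusted p of 0.0375 over 6 pairs of clusters. HoxB was lower than HoxA by 0.662 and than HoxC by 0.696 at the same p-values, while HoxA and HoxC differed by -0.0343 (HoxA minus HoxC, exact p = 0.875). HoxA minus HoxC was 0.381 without the flanks and 0.407 among only the 50000 best summits of each library, where the order of HoxB and HoxC also turned, by 0.0403 summits per 10 kb.

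**Figure D1:**
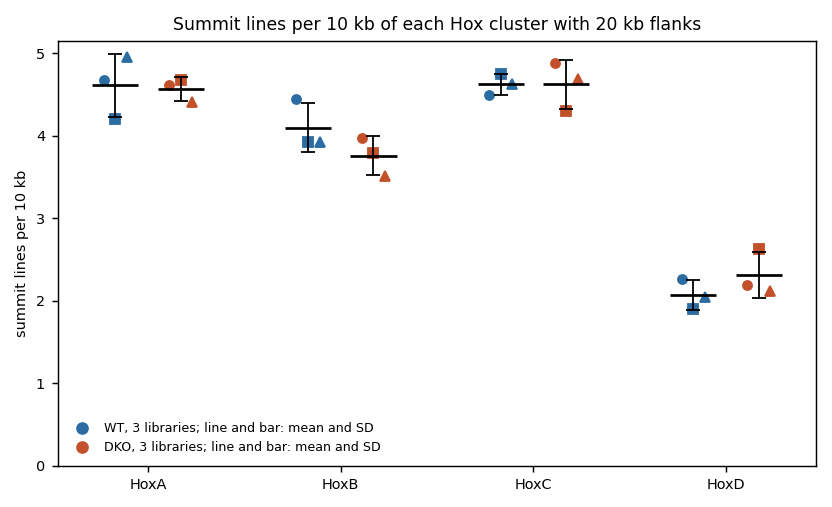
Peak summits per 10 kb of each Hox cluster with its flanks (vertical axis) in the WT and DKO libraries, 1 point per library with circles, squares and triangles for replicates 1, 2 and 3, and lines and bars for the mean and SD of 3. All HoxD points lie at 2.63 or below and all points of the other clusters at 3.51 or above.

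Summits were unevenly spread along each cluster. By nearest gene, Hoxb9 had the most summits in the clusters, 23 to 27 per library, with Hoxb3 at 9 to 16, Hoxc8 with 11 to 14 and Hoxc4 with 12 to 13. Hoxd1 had 0 to 3 and Hoxa6 0 to 2. These counts follow the spacing of the genes as well as their accessibility, since the summits of the wide interval between Hoxb9 and Hoxb13 count for 1 of those 2 genes.

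Runs of accessible windows, taken as at least 3 windows listed in all 6 libraries with centres at most 3 kb apart, were found at 8 places, 2 in HoxA, 3 in HoxB, 3 in HoxC and 0 in HoxD. In HoxA a run of 3 windows over 2.224 kb lay at Hoxa3 (chr6, 52211426 to 52213649). In HoxB, runs lay at the Hoxb9 start (chr11, 96269787 to 96272202), from Hoxb6 to Hoxb5 (96298749 to 96303565) and upstream of Hoxb9 (96251441 to 96254302). In HoxC, a run of 4 windows over 4.644 kb lay between the start sites of Hoxc8 and Hoxc6 used here (chr15, 102997979 to 103002622). It covers the 5′ end of the full Hoxc6 gene model (102998257) and extends into that gene. The other 2 runs lay at Hoxc5 (103014146 to 103015878) and within Hoxc4, between its 2 start sites (103026499 to 103028373).

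Stretches of at least 10 kb without a summit in any library numbered 13. The widest was in the flank beyond Hoxd1 (chr2, 74763185 to 74785142, 21.957 kb up to the edge of the region). The interval between Hoxb13 and Hoxb9 held 3 such stretches, of 20.167, 11.054 and 10.629 kb (chr11, from 96203839 to 96251130). The start of Hoxb1, at the anterior end of HoxB, lay inside a stretch of 11.414 kb (96354688 to 96366102), 350 bp from its edge, a summit listed near that start in 1 WT library alone. In HoxA, stretches of 10.295 kb and 10.534 kb contained the start sites of Hoxa2 (chr6, 52161277 to 52171572) and Hoxa13 (52259947 to 52270481), and in HoxC a stretch of 10.774 kb contained 1 of the 2 start sites of Hoxc4 (chr15, 103015649 to 103026423).

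**Figure D2:**
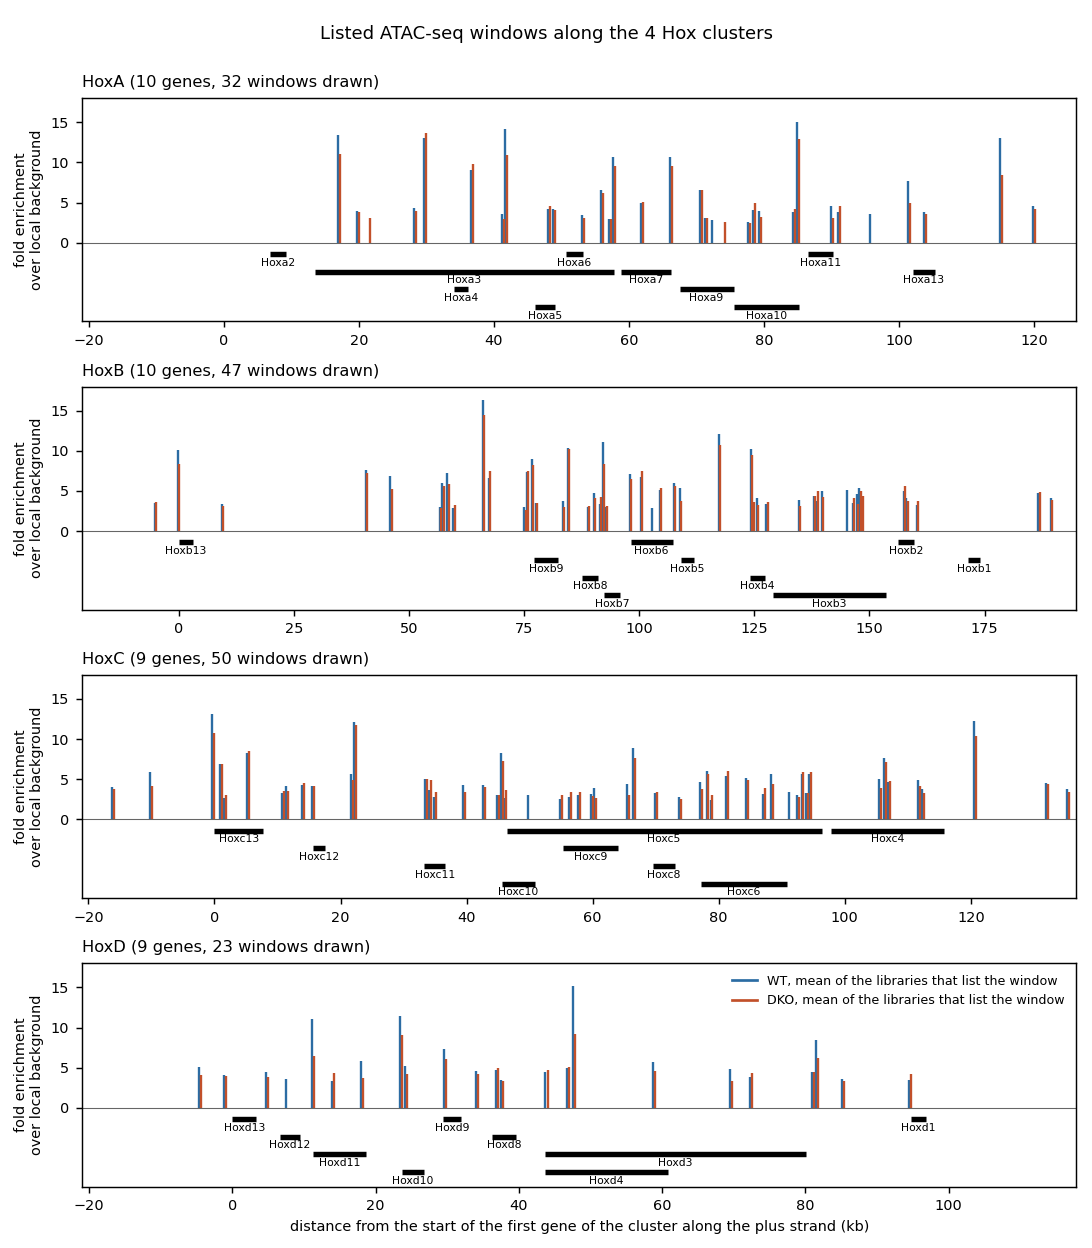
Fold enrichment over local background (vertical axes) of the windows along HoxA, HoxB, HoxC and HoxD (horizontal axes, distance in kb from the start of the first gene along the plus strand), with WT and DKO drawn as the mean of the libraries that list the window and the genes as black bars; 1 HoxA gene and its windows are not drawn. HoxB has wide gaps between Hoxb13 and Hoxb9 and at Hoxb1, and HoxD has few windows beyond Hoxd3 and Hoxd4.

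Of the 39 genes, 24 (61.5%) had a window within 1 kb of a start site that was listed in all 6 libraries, beside 59.8% of 21751 protein-coding genes, and 34 (87.2%) had a window in that range at all, beside 67.0%. By cluster, promoters listed in all 6 libraries numbered 8 of 11 in HoxA, 7 of 10 in HoxB, 6 of 9 in HoxC and 3 of 9 in HoxD. By position in the cluster, they numbered 3 of 8 in paralog groups 1 to 3 (37.5%), 11 of 15 in groups 4 to 8 (73.3%) and 10 of 16 in groups 9 to 13 (62.5%). The genes without a promoter window were Hoxa2, Hoxb1 and Hoxb3 at the anterior end and Hoxa13 and Hoxd13 at the posterior end. Single summits within 1 kb that gave no such window were listed in 3 libraries at Hoxb3, in 1 at Hoxb1 and in 1 at Hoxa13. For Hoxa2 the nearest summit lay 3554 to 3564 bp from the start site in all 6 libraries. Just beyond 1 kb, Hoxb3 -1035 and Hoxd13 -1003 passed the filter and were listed in 5 and 4 libraries. For Hoxb3 and Hoxd13 the lack of a promoter window thus depends on the distance limit.

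Paralog group 10 stood highest as a group, with its 3 genes listed in all 6 libraries and within the best 25% of the lists. Hoxa10 +257, in an untranslated region of the gene, had fold enrichments of 13.9, 14.2 and 17.02 in WT and 13.1, 12.7 and 12.8 in DKO. Hoxd10 -53 had 10.4, 9.82 and 14.2 in WT and 9.49, 10.02 and 7.64 in DKO. Hoxc10 -107, at a gene known to be active in subcutaneous fat, had 7.93, 7.70 and 9.10 in WT and 5.85, 8.08 and 7.77 in DKO. The deposited values overlapped between genotypes at Hoxc10 and Hoxd10 and not at Hoxa10, the scaled values used for the test overlapped at all 3, and the limma adjusted p was 0.846 for Hoxa10, 0.647 for Hoxd10 and 0.996 for Hoxc10.

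At the posterior end, Hoxc13 -290 had 14.2, 12.3 and 12.7 in WT and 11.4, 11.2 and 9.55 in DKO, a log2 change of -0.12 ± 0.14 (SE, adjusted p = 0.763), with no overlap before scaling. Hoxb13 -46 had 10.2, 7.40 and 12.6 in WT and 9.52, 10.2 and 5.24 in DKO. Both genes of group 12 were weak, with Hoxc12 listed in 5 libraries and Hoxd12 in 3. Within group 13 the HoxB and HoxC promoters thus had a window in every library. Those of HoxA and HoxD had none within 1 kb that passed the filter, with a summit 855 bp from the Hoxa13 start in 1 WT library. Hoxd13 -1003, just beyond that distance, was listed in 4 libraries. Hoxb13 is separated from the rest of its cluster by the bare stretches described above.

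Among groups 4 to 9, the promoter window of the best mean rank was Hoxb9 -298, at 9.90, 8.41 and 8.78 in WT and 9.38, 8.64 and 6.75 in DKO. Hoxb7 -63 had 12.1, 10.3 and 10.9 in WT and 7.09, 10.1 and 7.76 in DKO (log2 change -0.25 ± 0.16, adjusted p = 0.525), with no overlap before scaling. Hoxb4 +398 had 11.4, 9.11 and 10.3 in WT and 8.60, 9.22 and 10.7 in DKO, and Hoxa9 -33 had 6.81, 6.67 and 6.26 in WT and 5.73, 7.07 and 7.03 in DKO. Ranked by mean place in the lists, these 4 lay between 9.72% and 17.5% from the top. Weak promoters in this range were those of Hoxb8, Hoxd8 and Hoxc4, listed in 4, 3 and 3 libraries.

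Hoxa5, Hoxc8 and Hoxc9, genes known from adipose tissue, had low fold enrichments at their promoters. Hoxa5 +129 had 4.22, 3.86 and 4.72 in WT and 5.00, 3.97 and 3.21 in DKO. Hoxc8 +500, in its coding exon, had 3.23, 3.53 and 3.21 in WT and 3.57, 3.22 and 3.65 in DKO. Hoxc9 +441, in an intron, was listed in 1 WT library at 2.77 and in 2 DKO libraries at 2.65 and 4.07. The genotypes overlapped at each of them, and the log2 changes of 0.04 ± 0.28, 0.26 ± 0.33 and 0.69 ± 0.47 had adjusted p-values of 0.992, 0.785 and 0.543. Summit pileups at Hoxa5 +129 were 15, 14 and 16 reads in WT and 19, 13 and 10 in DKO. At Hoxc8 +500 they were 23, 24 and 26 reads in WT and 22, 19 and 17 in DKO. The local background, the divisor of fold enrichment, differed between these genes. Over the most common background of the library, its median was 1.11 at Hoxa5, 3.58 at Hoxc8 and 2.32 at Hoxc9. Its part in the low values was not tested. Hoxc8 had 11 to 14 summits per library nearest to its start site. Hoxc8 +8728, the best window of the run between the start sites of Hoxc8 and Hoxc6, lies in an intron of the full Hoxc6 gene model.

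At the anterior end, Hoxa3 -284 was the best promoter, at 11.2, 9.52 and 11.3 in WT and 10.2, 9.90 and 8.76 in DKO. Hoxb2 +339 had 4.76, 3.65 and 6.60 in WT and 4.61, 7.70 and 4.64 in DKO, while Hoxd1 -51 was listed in 1 WT library at 3.42 and in the 3 DKO libraries at 4.75, 4.53 and 3.28. Of the 34 genes with a promoter window, taking the best-ranked window of each, 12 were lower and 22 higher in DKO by the fitted change. Over all windows, 48.6% were lower. These signs rest on the scaling between libraries. Before scaling, the DKO mean was lower at 75.1% of all windows listed in all 6 libraries. It was also lower at some promoters that the fit counts as higher, such as Hoxa3 -284. Of the 34 windows, 0 passed the adjusted limma test, 2 had an unadjusted p under 0.05 (Hoxd12 +865, lower, and Hoxd1 -51, higher), and the smallest adjusted p was 0.218. Among the other windows within 1 kb of a start site, Hoxc10 +399 and Hoxc11 +817 also had an unadjusted p under 0.05, both higher in DKO and both described below. Over all windows, 0.0569% passed the adjusted test and 11.8% had an unadjusted p under 0.05.

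**Figure D3:**
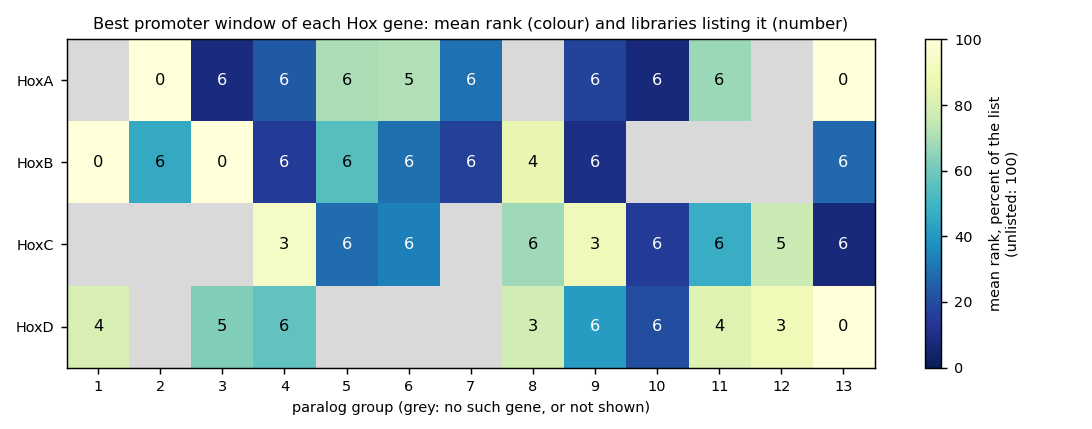
Best promoter window of each Hox gene by cluster (vertical) and paralog group (horizontal), with the colour giving the mean rank over 6 libraries as percent of the list (0 is the best, unlisted counts as 100) and the number giving the libraries that list it; grey is no such gene or a gene not shown. Group 10 is dark in all its 3 genes, while Hoxa2, Hoxb1, Hoxb3, Hoxa13 and Hoxd13, with 0, had no window within 1 kb that passed the filter.

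Of the 158 windows, 72 (45.6%) lay in introns, 43 (27.2%) between genes, 16 in untranslated regions, 14 in coding sequence and 13 in other exons, and 56 (35.4%) lay within 1 kb of a Hox start site. The best-ranked window of all was not a promoter: Hoxb9 -11002 (chr11, 96260205 to 96260705), in an intron of the long noncoding RNA gene Gm53, had fold enrichments of 16.4, 15.5 and 17.1 in WT and 14.8, 16.2 and 12.6 in DKO, over summit pileups of 148, 111 and 178 reads in WT and 115, 131 and 75 reads in DKO. Its median rank was 2.57% of the list, and its log2 change was -0.03 ± 0.11 (adjusted p = 0.971). Hoxa7 -3165 (median rank 7.20%) lies upstream of the start sites used here but covers the 5′ end of the full Hoxa7 gene model (chr6, 52221854), which is no start site in the basic annotation set. Hoxa4 +6312, in an intron of Hoxa3 transcripts, had a median rank of 10.2%. In HoxC the second best window, Hoxc12 +6667, lies between Hoxc12 and the gene Hotair, with 11.4, 10.9 and 14.2 in WT and 10.8, 12.1 and 12.5 in DKO.

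Taken over the 89 windows listed in all 6 libraries, the Hox clusters held fewer windows of very high rank than the genome. The best 10% of the lists held 6 of the 89 (6.74%), beside 18.2% of all 103981 such windows, and the best 25% held 35 (39.3%), beside 42.1%. By cluster, the best 10% held 3 of 25 in HoxA, 2 of 26 in HoxB, 1 of 28 in HoxC and 0 of 10 in HoxD. The share of windows listed in every library, 56.3% of the 158, was close to the 58.0% of all windows, with 65.8% in HoxA and 43.5% in HoxD. The rank comes from a p-value taken against the local background, so a lower place does not mean fewer reads. The median summit pileup of the 89 windows was 39, 33 and 53 reads in WT and 35, 35 and 25 in DKO. Over all 103981 windows listed in every library it was 36, 30 and 45 reads in WT and 33, 34 and 24 in DKO.

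The clusters also carry the miRNA genes of the miR-10 and miR-196 families, whose mature sequences from RefSeq (GRCm38.p6) are shown because both seeds recur in more than 1 cluster. Capitals mark the seed, bases 2 to 8.
mmu-miR-10a-5p: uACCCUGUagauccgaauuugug
mmu-miR-10b-5p: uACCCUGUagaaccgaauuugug
mmu-miR-196a-5p: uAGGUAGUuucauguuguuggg
mmu-miR-196b-5p: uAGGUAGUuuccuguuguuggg

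The seed ACCCUGU is shared by miR-10a of HoxB and miR-10b of HoxD, and the seed AGGUAGU by miR-196a of HoxB and HoxC and miR-196b of HoxA. The window nearest to Mir10a was Hoxb4 +398, with its centre 1446 bp from that of the hairpin, and that nearest to Mir10b was Hoxd4 +113, 1084 bp away, with 4.96, 4.55 and 7.63 in WT and 3.91, 5.67 and 4.26 in DKO. Mir196a-1 had its nearest window, Hoxb9 -9659, 3416 bp away, at 6.43, 5.87 and 7.52 in WT and 8.20, 6.01 and 8.18 in DKO (adjusted p = 0.458). Mir196b had Hoxa9 -2268, 485 bp away, listed only in 2 DKO libraries, at 2.80 and 2.44. Mir196a-2, in HoxC, had Hoxc10 +4163, which was listed in WT alone and is described below. The first 3 of these windows overlapped between genotypes.

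The second comparison asks whether the clusters differed between WT and DKO preadipocytes. The number of summits did not differ beyond the spread. The 4 clusters together held 264, 245 and 256 summits in WT and 258, 252 and 241 in DKO, a difference of -4.67 (2-sided exact permutation p = 0.6; 3 against 3 cannot go below 0.10). HoxA had 68, 61 and 72 in WT and 67, 68 and 64 in DKO, and HoxC 70, 74 and 72 in WT and 76, 67 and 73 in DKO. HoxB had 95, 84 and 84 in WT and 85, 81 and 75 in DKO (exact p = 0.3), and HoxD 31, 26 and 28 in WT and 30, 36 and 29 in DKO (exact p = 0.4). The genotypes overlapped in each cluster.

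Of the 158 windows, 0 were called at an adjusted p under 0.05 by limma, beside 0.0569% of all windows, which is 102 windows genome-wide. At an unadjusted p under 0.05 there were 9, 4 lower and 5 higher in DKO, or fewer in proportion than the 11.8% of all windows. WT and DKO values did not overlap at 21 windows (13.3%), beside 16.4% of all windows. Windows listed in the 3 WT libraries and in 0 DKO libraries numbered 4, beside 1.23% of all windows, and the reverse 0, beside 1.14%. In the fit on windows listed in all 6 libraries 0 Hox windows were called, beside 0.868%, and in the fit without a mean-variance trend 2 were called, beside 2.31%. Apart from the 4 listed in WT alone, each of these counts was a share below its background, and those 4 fell to 1 when an interval over at least 50% of the window counted as listed and to 0 among the 50000 best summits.

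The fitted log2 change, taken on quantile-normalized fold enrichment, was negative at 66 windows and positive at 92, with a median of 0.063 beside 0.010 over all windows. The median was 0.040 in HoxA, 0.048 in HoxB, 0.132 in HoxC and -0.077 in HoxD. In HoxC 35 of 50 windows were higher and in HoxD 13 of 23 lower, but the medians depended on single libraries. Without DKO replicate 1 the HoxD median was 0.0105, HoxA was -0.046 without WT replicate 1 and -0.047 without DKO replicate 3, HoxB was -0.014 without WT replicate 1 and -0.032 without WT replicate 3, and HoxC was 0.043 without WT replicate 3. These directions also depended on the scale: without scaling between libraries the medians were -0.127, -0.110, -0.016 and -0.208, beside -0.135 over all windows.

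HoxD held 4 of the 9 windows with an unadjusted p under 0.05. Hoxd3 +4059 (chr2, 74715736 to 74716236), the best-ranked HoxD window, lies in introns of Hoxd3 and Hoxd4 and at the start of the antisense RNA Hoxd3os1, and had 16.1, 13.2 and 16.1 in WT and 9.83, 11.3 and 6.55 in DKO, with pileups of 77, 60 and 86 reads in WT and 46, 61 and 25 in DKO. The fold enrichments did not overlap, and the log2 change was -0.58 ± 0.16 (adjusted p = 0.180, and 0.0753 in the fit on windows listed in all 6 libraries). Under the processing alternatives it lay between -1.52 and -0.39. Hoxd11 -2772 (chr2, 74679301 to 74679801), between Hoxd12 and Hoxd11, had 10.1, 9.51 and 13.4 in WT and 4.49, 7.53 and 7.30 in DKO, a log2 change of -0.60 ± 0.21 (adjusted p = 0.270). Both windows had lower fold enrichments in 3 of 3 DKO libraries than in any WT library and did not pass the adjusted test, and the pileups of Hoxd3 +4059 overlapped.

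The 2 other HoxD windows lay near start sites and were weak. Hoxd12 +865 had 3.44, 3.44 and 4.06 in WT and was not listed in DKO, a log2 change of -1.17 ± 0.36 (adjusted p = 0.218) in which the unlisted libraries stand at the lowest value of their lists. It was called without the mean-variance trend (adjusted p = 0.0132), and its change lay between -1.24 and -0.45 under the processing alternatives. Hoxd1 -51, described above, went the other way by 1.09 ± 0.43 (adjusted p = 0.352), and by 0.43 to 1.52 under the alternatives.

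Outside HoxD, the smallest p-value belonged to Hoxa13 -9771 (chr6, 52270401 to 52270901), a window in the flank beyond Hoxa13, with 12.6, 10.5 and 15.9 in WT and 9.44, 7.94 and 7.86 in DKO. Its log2 change was -0.44 ± 0.13 (adjusted p = 0.188). Hoxc10 +399, in the first coding exon of Hoxc10, was listed in 2 WT libraries at 2.70 and 2.75 and in the 3 DKO libraries at 3.59, 3.77 and 3.62, a log2 change of 1.16 ± 0.35 (adjusted p = 0.212, and 0.0164 without the trend). In the same gene Hoxc10 +4163 was listed in WT alone, at 3.03, 2.90 and 3.08 (adjusted p = 0.467).

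The other HoxC windows with small p-values were both higher in DKO. Hoxc11 +817, in the intron, had 3.24, 3.41 and 4.51 in WT and 4.84, 4.91 and 5.01 in DKO (log2 change 0.59 ± 0.25, adjusted p = 0.393). Hoxc6 -1307 had 2.76 and 3.71 in 2 WT libraries and 3.74, 3.17 and 4.82 in DKO (adjusted p = 0.376). In HoxB, Hoxb3 +9631 had 3.83 and 3.77 in 2 WT libraries and 3.82, 6.57 and 4.68 in DKO (adjusted p = 0.401). Hoxb6 +2275, Hoxa13 +3713 and Hoxb3 -4236 followed with log2 changes of 0.33, -0.44 and -1.05 and adjusted p-values of 0.436, 0.437 and 0.441. The remaining windows listed in WT alone, Hoxa9 -655 and Hoxb6 -1964, had pileups of 27, 19 and 26 and of 31, 18 and 25 reads.

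**Figure D4:**
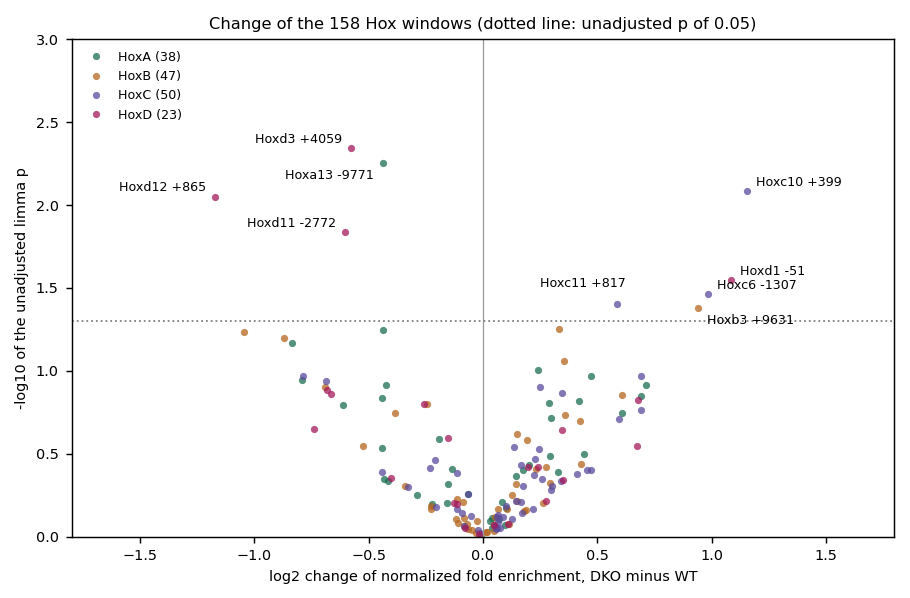
Log2 change of the 158 Hox windows, DKO minus WT (horizontal), against -log10 of the unadjusted limma p (vertical), coloured by cluster, with a dotted line at a p of 0.05. The 9 windows above the line are 4 lower and 5 higher in DKO, and 4 of them belong to HoxD.

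The place of the Hox windows within each list needs no scaling between libraries. The median rank of the 89 windows listed in all 6 libraries was 30.5%, 28.8% and 29.8% of the list in WT and 33.6%, 34.4% and 33.1% in DKO, where a larger number is a lower place. The genotypes did not overlap, and the difference of 4.00 percentage points had the smallest exact permutation p that 3 against 3 allows, 0.10. Over all such windows the median was 28.9%, 29.4% and 29.0% in WT and 30.1%, 30.0% and 29.9% in DKO, also without overlap and with a difference of 0.929. By cluster, HoxC alone did not overlap, at 30.4%, 32.3% and 34.2% in WT and 35.0%, 37.2% and 37.0% in DKO, a lower place in DKO (exact p = 0.10), against the sign of its median log2 change on scaled values. With the windows missing from some lists counted at the end, the Hox difference was -1.04 (exact p = 0.6). The median fold enrichment of the 89 windows overlapped, at 5.75, 5.44 and 7.15 in WT and 5.46, 5.73 and 5.40 in DKO (exact p = 0.3).

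Fold enrichment is a ratio of the reads at a summit to a local background that the peak caller takes from the surroundings, so the background was examined too. This measure was added after the data had been seen. It was read as the local background over the most common background of the library, and is 1 where the surroundings carry no more reads than the genome. The median over summits was 2.53 ± 0.216 (SD, n = 3) in HoxA in WT, 2.11 ± 0.266 in HoxB, 2.73 ± 0.290 in HoxC and 1.11 ± 0.0506 in HoxD, beside 1.38 ± 0.0935 over the whole lists. HoxA, HoxB and HoxC thus lay in surroundings rich in reads and HoxD in surroundings close to the genome's level. By gene, high values belonged to Hoxa7, at 3.14 to 4.62 over the 6 libraries, and among the lowest were Hoxb1, Hoxd4 and Hoxd13.

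In DKO the HoxC background was lower than in WT. It was 2.68, 2.47 and 3.04 in WT and 2.14, 2.16 and 1.98 in DKO, without overlap, a difference of -0.639 (exact permutation p = 0.10, the smallest possible). HoxB had 2.10, 1.85 and 2.38 in WT and 1.68, 1.85 and 1.71 in DKO (exact p = 0.2). HoxA differed by 0.0503 (exact p = 0.9) and HoxD by 0.0150 (exact p = 0.6). Among 5694 tiles of 150 kb across the genome, the DKO libraries lay below the WT libraries without overlap in 683 and above them in 100, and 2.35% of the tiles had a more negative difference than HoxC. The median over the whole lists was 1.38, 1.29 and 1.48 in WT and 1.34, 1.37 and 1.28 in DKO, which overlapped (exact p = 0.4).

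The same was read at the same places in every library, the 89 windows listed in all 6. DKO lay below WT without overlap at 31 of them (34.8%), beside 11.1% of all such windows, and above at 1. By cluster these were 17 of 28 in HoxC, 10 of 26 in HoxB, 4 of 25 in HoxA and 0 of 10 in HoxD. Neighbouring windows share their surroundings, so these windows are not independent of each other. The median ratio in HoxC was 2.68, 2.39 and 3.003 in WT and 2.07, 2.15 and 1.99 in DKO, and in HoxB 2.16, 1.97 and 2.51 in WT and 1.75, 1.87 and 1.71 in DKO, both without overlap. Over all windows it was 1.44, 1.32 and 1.58 in WT and 1.36, 1.38 and 1.32 in DKO. In HoxA the sign depended on the places, with a difference of -0.270 at these windows.

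The mean background was lower in DKO at 85 of the 89 windows (95.5%), beside 81.9% of all windows listed in all 6 libraries. By nearest gene, the mean of the library medians was lower in DKO at 36 of 39 Hox genes, 13 of them without overlap. In HoxC it was lower at 9 of 9 genes, 4 of them without overlap. Among those 4 was Hoxc6, which helps pattern the thorax, at 3.97, 3.41 and 4.23 in WT and 2.93, 3.15 and 2.72 in DKO. A lower background raises the fold enrichment of a window with the same reads at its summit. The median summit pileup of the HoxC windows was 45.5, 37 and 57.5 reads in WT and 37, 36 and 29 in DKO (exact p = 0.2), and that of all windows 36, 30 and 45 in WT and 33, 34 and 24 in DKO. Both overlapped between genotypes. In HoxD it was 25.5, 22 and 27 in WT and 18, 19.5 and 20 in DKO, without overlap (exact p = 0.10, the smallest possible). The part of depth in the background difference was not tested.

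**Figure D5:**
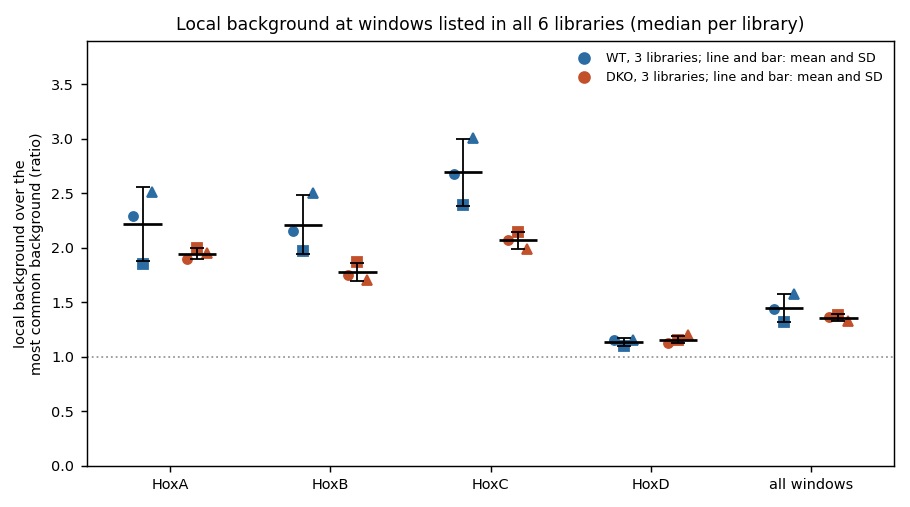
Median local background over the library's most common background (vertical axis, ratio, dotted line at 1) at windows listed in all 6 libraries, for each Hox cluster and for all windows, 1 point per library with lines and bars for the mean and SD of 3. DKO points lie below all WT points in HoxB and HoxC and not in HoxA, HoxD or all windows.

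In sequence, the Hox windows were richer in GC and in CpG than the rest. Their median GC content was 53.4%, beside 46.3% of all windows, their median observed over expected CpG was 0.560 beside 0.217, and 22.2% had a GC content above 60%, beside 7.07%. AP-1 matches (TGANTCA, both strands, over the whole window) were fewer, in 24 windows (15.2%) beside 36.6%, as were MEIS matches (TGACAG) in 27 (17.1%) beside 32.2%. HOX-PBX matches (TGATTNAT) in 16 (10.1%) beside 9.82% and the homeodomain core TAATTA in 17 (10.8%) beside 11.03% were near the genome's share. The motifs can overlap each other, and none of these shares was tested.

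The CTCF consensus had 0 exact matches in the 158 windows, beside 3.25% of all windows, and with at most 1 mismatch, a search added after the exact one, 11 (6.96%) beside 12.4%. These near matches include the windows Hoxa10 +257, Hoxa5 +129, Hoxa7 -3165, Hoxa13 -9771, Hoxc11 +817 and Hoxc12 +6667 described above, and HoxA held 5 of the 11 and HoxD 3. The retinoic acid response element DR5 had 1 match (0.633%), at Hoxa2 -10670, beside 0.209% of all windows. On the scaled values, of the windows with an AP-1 match 14 were lower and 10 higher in DKO. Their median log2 change was -0.019, beside 0.0059 over all 65599 windows with that match. Of those with a near CTCF match 3 were lower and 8 higher, with a median of 0.046 beside -0.040 over all 22247. Limma called 0 in either, beside 0.0569% of all windows. These signs depend on the scaling. Before it, the DKO mean was lower at Hoxa7 -3165 and Hoxc12 +6667, which the fit counts as higher, and higher at Hoxc11 +817.

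Other genes of the Hox pathway were read at their promoters, from a list of 26. Of these 23 had a promoter window and 22 had one in all 6 libraries. The fitted change on the scaled values was negative at 3 and positive at 20, 0 passed the adjusted limma test (0.0569% of all windows), and 1 had an unadjusted p under 0.05 (11.8% of all windows). The 9 Hox cofactors of the Pbx, Meis and Pknox families, which bind DNA with Hox proteins, all had a window in every library. Meis1 had 7.27, 8.93 and 8.49 in WT and 8.02, 8.54 and 7.65 in DKO.

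The 10 chromatin regulators of Hox clusters had a median log2 change of 0.22 on the scaled values, positive at each of the 10, while 48.6% of all windows were negative. These signs rest on the scaling: in the deposited values, the DKO mean was lower at 4 of the 9 regulators and at 14 of the 22 genes of the list that had a window in all 6 libraries, beside 75.1% of all such windows. The largest change was at Rnf2, the ubiquitin ligase of Polycomb complex 1, with 5.20, 5.62 and 6.34 in WT and 7.22, 10.001 and 6.14 in DKO (log2 change 0.60 ± 0.20, adjusted p = 0.245), where 1 DKO library lay within the WT range. Ezh2, the methyltransferase of Polycomb complex 2, had 18.4, 18.01 and 21.2 in WT and 18.2, 18.9 and 17.3 in DKO, and Kmt2a had 6.27, 7.85 and 6.56 in WT and 6.47, 7.66 and 7.09 in DKO. Among 7 upstream signals, the Hox activators Cdx1, Cdx2 and Cdx4 had no promoter window, and Gdf11, a posterior growth factor, had 4.57, 3.95 and 4.55 in WT and 5.62, 5.34 and 4.40 in DKO (adjusted p = 0.465).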

How the data were processed

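ATAC-seq of 3 WT and 3 DKO preadipocyte libraries was deposited as 1 peak list per library. Per the study's methods and the submitters' notes, the authors trimmed paired-end reads (cutadapt 1.18), aligned them to mm10 (Bowtie2 2.3.4.3), removed duplicate and mitochondrial reads and called peaks per library with MACS2. The methods name the default settings, while the labels of the deposited lists name a p limit of 0.01, the best 300000 peaks and a blacklist filter; which settings made the lists is not settled here. Whether the reads were shifted for Tn5 is not given in the sources used here. The deposited fold enrichment is a ratio of summit pileup to local background, and the deposited −log10 p and −log10 q values come from the same caller. Lists cut at a fixed number hide depth and move an unlisted site to an unknown low value.

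Summits were merged into windows of 250 bp to either side, best rank first, on chromosomes 1 to 19 and X. A window was kept with a q under 0.01 in at least 2 libraries, and an unlisted value was set to the lowest fold enrichment of that list. Quantile-normalized log2 fold enrichment was fitted over all windows with limma 3.58.1 (R 4.3.3; lmFit, eBayes with trend, 2-sided, Benjamini-Hochberg, threshold 0.05), tested on simulated data first. Summit pileups were recovered from fold enrichment and p and were whole, within 0.05, in 100% of lines. Counts and medians per library were compared with exact permutation tests. Positions came from GENCODE for mm10, and 27 of 27 Hox promoters of the RefSeq table (25 symbols) equalled the genome used. The tables were made with Python 3.11.15, numpy 2.4.6 and pandas 2.3.3.

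The Hox genes, marker and pathway lists and tests were chosen with earlier results of these data known. Windows were named by rule: the 12 with the smallest p, those listed in 1 genotype alone, the best promoter window of each gene, with Hoxa5, Hoxc8, Hoxc9 and Hoxc10 in any case, and the widest open and bare stretches. The best-ranked windows, Hoxc12 +6667 and those holding motifs were named after their values were seen. Scaling, filters, the value used, the list length, regions, distances, a replicate block and each library were varied. The values of 1 Hox gene and of 1 cofactor are not reported here.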

Additional observations from a re-analysis of the deposited data

How the results depend on the processing

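Of 494 values recomputed under alternatives for 43 results, 408 kept their direction, their side of the threshold and their size. The lists give no depth, so weak Hox windows missing from a list are not shown to be closed, and 3 libraries a genotype cannot give an exact p below 0.10. No Hox window was called by limma under any alternative except without the mean-variance trend, where 1 was called lower (Hoxd12 +865, -1.17) and 1 higher (Hoxc10 +399, 1.16). The replicate numbers did not pair the libraries (correlation of same-numbered deviations 0.0054, -0.0115 and -0.0071), and with the replicate block 0 Hox windows were called and the median log2 change was 0.063. Without scaling the median log2 change was -0.088 over all Hox windows, -0.127 in HoxA, -0.110 in HoxB, -0.016 in HoxC and -0.208 in HoxD. From −log10 p it was -0.0072 over all, -0.0049 in HoxB and 0.017 in HoxC, and from summit pileups -0.069 over all, -0.046 in HoxA, -0.103 in HoxB and -0.037 in HoxC. Over windows listed in all 6 libraries it was 0.10 in HoxB and 0.074 in HoxC, with no filter on the number of libraries 0.036 in HoxD, and among the 50000 best summits 0.13 in HoxA, -0.21 in HoxC and -1.52 in HoxD. The last equals the lowest value of the window Hoxd3 +4059 under the alternatives. HoxD held 1, 2 and 1 of the 50000 best summits in WT and 0, 1 and 0 in DKO. Leaving out 1 library gave -0.047 to 0.050 in HoxA, -0.032 to 0.12 in HoxB, 0.043 to 0.17 in HoxC and -0.16 to 0.0105 in HoxD, positive there without DKO replicate 1. The difference in summits moved to between -3.67 and 1.83 in HoxA without 1 library, and to -1.0 in HoxD among the 50000 best. The median rank difference was -1.04 with unlisted windows included. The windows listed in WT alone fell to 1 when an interval over at least 50% of the window counted as listed and to 0 among the 50000 best, and those listed in DKO alone were 0 to 1 without 1 library. The density differences per 10 kb without 1 library, where 5 pairs cannot give an exact p below 0.0625, were 0.589 to 0.747 for HoxA minus HoxB, -0.117 to 0.0694 for HoxA minus HoxC, 2.29 to 2.47 for HoxA minus HoxD, -0.825 to -0.600 for HoxB minus HoxC, 1.65 to 1.85 for HoxB minus HoxD and 2.35 to 2.58 for HoxC minus HoxD. HoxA minus HoxC was 0.381 without flanks and 0.407 among the 50000 best summits, and HoxB minus HoxC 0.0403 among the 50000 best. The local background difference of HoxA was -0.270 at windows listed in all 6 libraries and -0.0529 to 0.162 without 1 library, and that of HoxD -0.0130 to 0.0519. Hoxa5 +129 was -0.089 without scaling and -0.13 to 0.18 without 1 library, Hoxc8 +500 was -0.072 from pileups, and Hoxc10 -107 was -0.13 to 0.14 without 1 library. The cause of these changes was not tested. Of the named windows, 14 among the 50000 best summits and 7 under the filter for all 6 libraries gave no value.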
